A study of Mus musculus with 12 samples.

Results

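The clustered protocadherins were taken from a raw gene count table of mouse cells as every row whose symbol begins with Pcdha, Pcdhb or Pcdhg followed by a digit, a, b or c. The rule found 59 rows of 24391, which were 15 of the alpha cluster, 22 of the beta cluster and 22 of the gamma cluster. The table held RNA-seq counts of 12 libraries in 6 groups of 2, from 4 female embryonic stem cell (mESC) lines of a cross between C57BL/6J-129/SvJ and Mus musculus castaneus mice. All 4 lines, controls included, carry Cre-ERT on 1 Rosa26 allele (Rs26+/CreERT), a recombinase that acts once hydroxytamoxifen (OHT) is added. Lines 5.3 and 5.16 are Rif1+/+ and are called WT. Lines 15.10 and 16.9 are Rif1F/F and carry floxed Rif1 alleles, called F/F before OHT and KO after it. Each line was sequenced once before OHT, once as mESC after 2 days of OHT and once as an embryoid body (EB), an aggregate differentiating for 2 days, grown from OHT-treated cells. The mESC medium held serum, LIF and inhibitors of MEK and GSK3. Each genotype was thus represented by 2 lines, so a difference between genotypes cannot be told apart from a difference between lines, and condition cannot be told apart from flow cell, since each condition had its own.

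Clustered protocadherins are cell-surface adhesion molecules best known from neurons, where each cell displays its own combination of isoforms and uses it to tell its own branches from those of other cells. The 3 clusters lie in tandem on chromosome 18. In the alpha and gamma clusters each gene symbol stands for 1 variable first exon with its own promoter, spliced to constant exons shared by the whole cluster, whereas beta genes have no constant exon. Promoter choice in neurons involves CTCF, cohesin and DNA methylation, and the C-type isoforms (Pcdhac1, Pcdhac2, Pcdhgc3, Pcdhgc4 and Pcdhgc5) are chosen less randomly than the others. RIF1 is a chromatin protein known for its part in replication timing and DNA repair.

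Total counts ran from 28600870 to 64808897 per library, so 3 reads, the limit allowed by a count of 0, corresponded to between 0.0463 and 0.105 CPM, the counts scaled to a fixed total per library. This limit and all intervals below cover counting error only. Rif1, the targeted gene, stood at 654 to 719 CPM in the KO mESC and 806 to 861 CPM in the KO EB libraries, below the 1308 to 1802 CPM of the 6 WT libraries. It was already below WT in the F/F libraries, at 1157 and 1204 CPM. The WT mESC library of line 5.3 stood apart, with 0.869% of its counts on Lars2 against at most 0.1405% elsewhere. Summed CPM of 7 pluripotency markers was 4246 to 5834 in the mESC libraries and 1309 to 1593 in EB, and that of 4 formative epiblast markers was 118 to 209 in mESC and 977 to 1535 in EB. Of 10 fibroblast markers, between 0 and 5 were at 0 in a library and their sum was 8.10 to 21.5 CPM.

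Gamma-cluster transcripts carried nearly all clustered protocadherin reads in these cells. Over the 12 libraries the 59 rows held 21732 reads, of which the gamma cluster had 21061 or 96.9%, the alpha cluster 440 or 2.02% and the beta cluster 231 or 1.06%. All 22 gamma genes had reads in every library. In the alpha cluster 11 of 15 genes had reads, and Pcdhac2 alone had 363. Pcdha4, Pcdha6, Pcdha7 and Pcdha7-g were at 0 in all 12 libraries. All 22 beta genes had reads in at least 1 library, but the largest value of a beta gene in any library was 9 reads. Only Pcdhac2 and the 22 gamma genes, 23 in all, passed the filter on low counts, and the other 36, which include all beta genes, were not tested.

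Summed gamma reads were 38.5 and 43.4 CPM in WT cells and 46.0 and 43.9 CPM in F/F cells before OHT. After OHT they were 44.1 and 45.7 CPM in WT mESC, and 52.5 and 51.1 CPM in KO mESC. In EB they were 37.9 and 38.3 CPM in WT, and 46.1 and 49.1 CPM in KO. The KO libraries were above the WT libraries without overlap in both conditions after OHT, by 1.15-fold in mESC and 1.25-fold in EB, and the F/F libraries were 1.10-fold above WT before OHT, also without overlap. Without Pcdhgc3, its most abundant member, the F/F to WT ratio turned round, to a log2 ratio of -0.08.

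**Figure D1:**
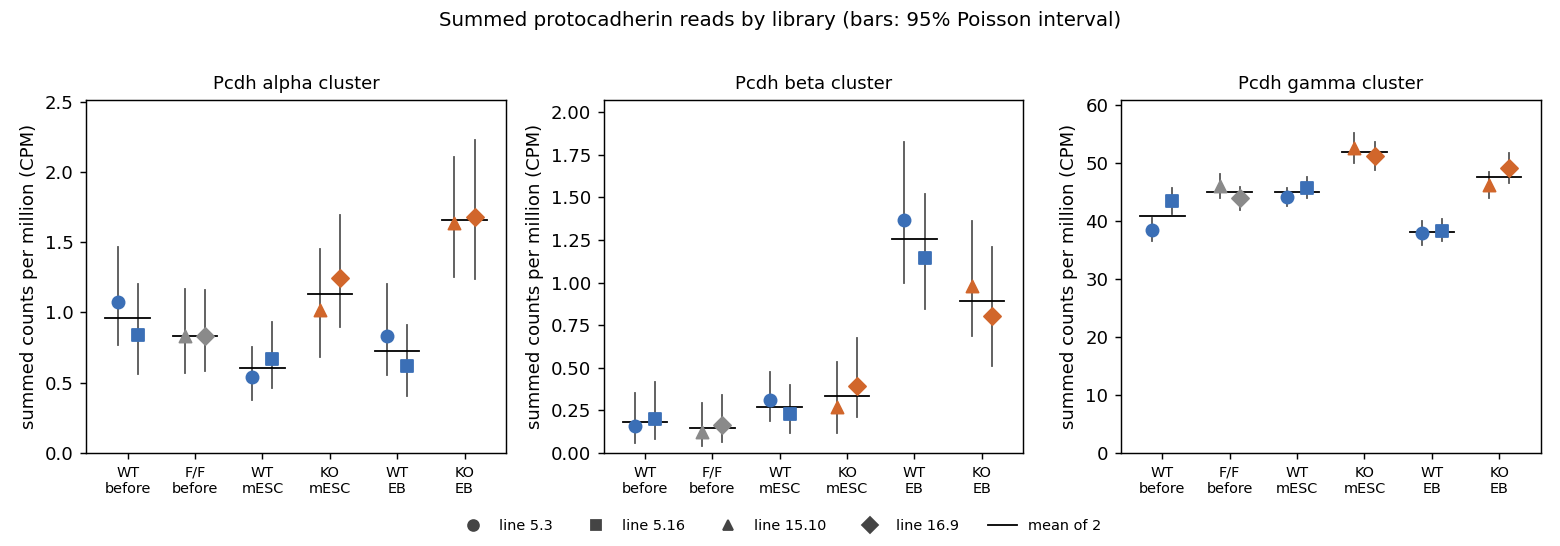
Summed CPM of the alpha, beta and gamma clusters (3 panels, each axis from 0) in the 12 libraries by group, 1 symbol per line, with 95% Poisson intervals as vertical bars and the mean of each pair as a horizontal line. The beta sum is at 0.804 to 1.37 CPM in the 4 EB libraries against at most 0.396 in the mESC libraries, while the gamma sum stays between 37.9 and 52.5 CPM throughout.

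The alpha cluster was read almost only from Pcdhac2, the last variable exon of that cluster and a C-type isoform. Its level was 1.02 and 0.781 CPM in WT and 0.753 and 0.810 CPM in F/F cells before OHT. It was 0.463 and 0.630 CPM in WT mESC and 0.847 and 1.13 CPM in KO mESC. It was 0.416 and 0.239 CPM in WT EB, on 14 and 10 reads, and 1.23 and 1.40 CPM in KO EB, on 45 and 40 reads. The 2 KO EB libraries were the highest of all 12, the 2 WT EB libraries the lowest, and before OHT the 2 genotypes overlapped. Pcdhac2 rose in KO against WT EB by 1.96 ± 0.36 (log2 ± SE, adjusted p = 0.000363, edgeR quasi-likelihood test over 17115 genes), and in mESC the difference was 0.81 ± 0.32 (adjusted p = 0.0575, edgeR). These p-values rest on the spread between the 2 lines of a group, pooled over the 6 groups and drawn towards that of all genes. The 4 lines entered as 12 libraries with no term for line, so these are not 12 independent replicates. With 2 libraries against 2, no exact two-sided permutation test of a single value can go below 0.333. A lack of overlap between 2 groups reaches no further than that. Overlap is therefore given as a description throughout, and its share over all genes was not computed. The Pcdhac2 call in EB held under all 8 alternatives that were run.

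The other alpha genes were at trace level before OHT and in mESC and above it in EB of both genotypes. Their summed reads were 1 to 5 in each of the 8 mESC libraries, which is 0.0238 to 0.169 CPM, and 14, 16, 15 and 8 in the EB libraries, which is 0.416 and 0.382 CPM in WT and 0.409 and 0.280 CPM in KO. Every EB library lay above every mESC library. Pcdhac2 had 14 of 28 and 10 of 26 alpha reads in WT EB, 45 of 60 and 40 of 48 in KO EB, and between 83.3% and 97.1% in the mESC libraries. Consequently the alpha sum was 2.28-fold higher in KO than in WT EB with Pcdhac2, and lower without it, at a log2 ratio of -0.21. Pcdha12 had 1 and 5 reads in WT EB and 7 and 4 in KO EB, with 1 read in all mESC libraries together. Pcdha11, the third alpha gene by mean level, had 11 reads in all, at most 3 in a library. Pcdha9 had 9 reads in WT EB and 0 in KO EB, which allows up to 0.0818 and 0.105 CPM in the 2 KO libraries.

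Beta-cluster reads were rare in mESC and more frequent in EB of both genotypes. Before OHT the WT libraries held 6 and 7 beta reads and the F/F libraries 5 and 7. The WT mESC libraries held 20 and 12 and the KO mESC libraries 8 and 13. The WT EB libraries held 46 and 48 and the KO EB libraries 36 and 23. On the depth-scaled level the EB libraries were above the mESC libraries without overlap, by 4.67-fold in WT, from 0.269 ± 0.0561 to 1.26 ± 0.156 CPM (SD, n = 2), and by 2.68-fold in KO, from 0.333 ± 0.0881 to 0.893 ± 0.126 CPM. In EB both KO libraries, at 0.982 and 0.804 CPM, were below both WT libraries, at 1.37 and 1.15 CPM, although the Poisson intervals of single libraries overlapped. The reads were spread thinly over 12 and 13 beta genes in the WT EB libraries and over 17 and 9 in the KO EB libraries.

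Among beta genes the highest mean levels belonged to Pcdhb17, Pcdhb2 and Pcdhb22. Pcdhb17 had 9 and 9 reads in WT EB and 2 and 0 in KO EB. Pcdhb2 had 9 and 9 reads in WT EB and 3 and 5 in KO EB, against 3 reads in all 8 mESC libraries together. Pcdhb22 had 6 and 4 reads in WT EB and 3 and 1 in KO EB. Not all beta genes had fewer reads in KO EB. Pcdhb1, the next by mean level, had 0 and 1 reads in WT EB and 4 and 6 in KO EB. These genes did not pass the filter, so they had no test in the main fit. When all genes were fitted without the filter, Pcdhb2, Pcdhb3, Pcdha9 and Pcdha12 passed for a rise from WT mESC to WT EB, Pcdhb2 for a rise in the KO lines, and Pcdhb17 for a lower level in KO than in WT EB, with a log2 fold change of -2.91 (adjusted p = 0.0425, edgeR).

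**Figure D2:**
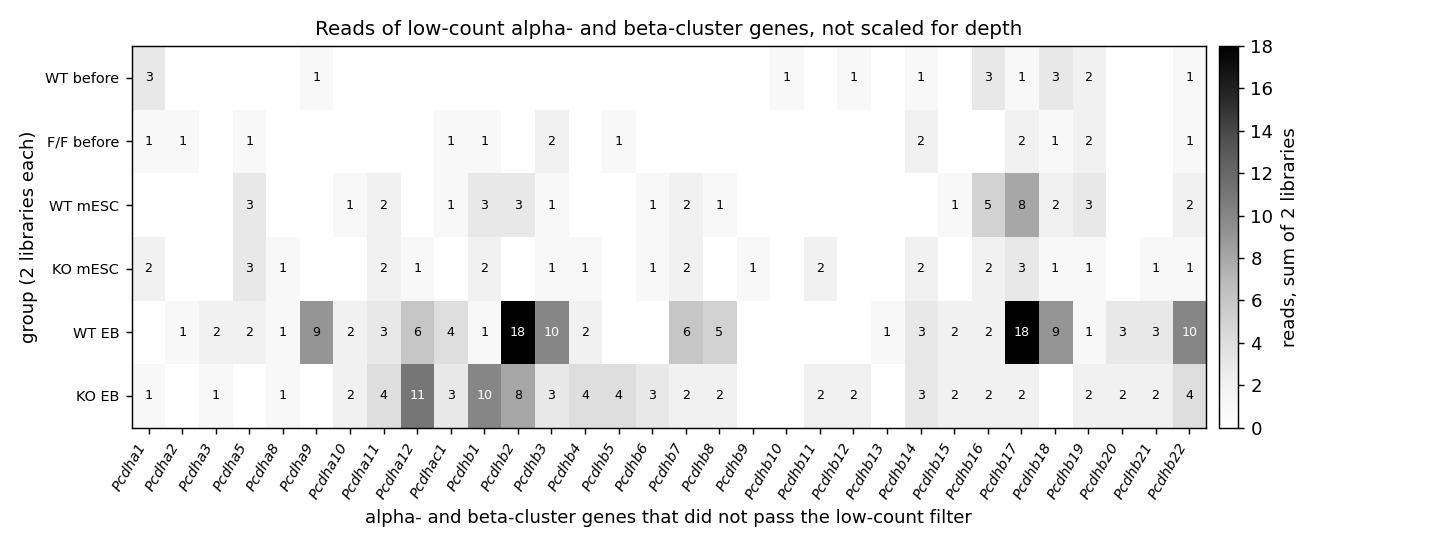
Reads of the alpha and beta genes that had reads but did not pass the filter, in chromosomal order along the horizontal axis, summed over the 2 libraries of each group (rows) and not scaled for depth; white cells hold 0. The EB rows hold the most reads, with Pcdhb2 and Pcdhb17 at 18 each in WT EB and Pcdha12 at 11 in KO EB.

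Within the gamma cluster, levels were highest near the 3′ end of the variable exons. Scaled to the length of the variable first exon (2421 to 2961 bases in the GRCm38 annotation), the highest mean level over the 12 libraries was 4.60 CPM per kb for Pcdhgc3, followed by 2.45 for Pcdhga12, 1.99 for Pcdhgb8 and 1.41 for Pcdhga11. These 4 genes lie next to each other, and the lowest mean level, 0.0613 CPM per kb, was that of Pcdhga6 in the middle of the cluster. Pcdhga1, the first gene of the cluster, was at 1.14 CPM per kb. Pcdhgb8 is a transcribed pseudogene in RefSeq. These 4 genes, ranked by their mean over all 12 libraries, together held 58.4% to 68.4% of gamma reads in the mESC libraries, 59.3% and 62.6% in WT EB and 51.5% and 50.8% in KO EB. In both KO EB libraries Pcdhga1 was above Pcdhgb8 and Pcdhga11.

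The other large genes kept to narrow ranges. Pcdhga12 was at 5.48 to 6.91 CPM before OHT, 7.17 to 8.44 CPM in mESC after OHT and 6.98 to 8.59 CPM in EB. Pcdhgb8 stood between 3.82 and 5.77 CPM and Pcdhga11 between 3.26 and 4.06 CPM in all 12 libraries. None of the 3 was called between genotypes in any condition. From F/F to KO mESC Pcdhga12 was called. From untreated to treated WT it stood at 0.34 (adjusted p = 0.0501, edgeR) and passed with RLE size factors, without the filter and without the untreated library of line 5.16.

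**Figure D3:**
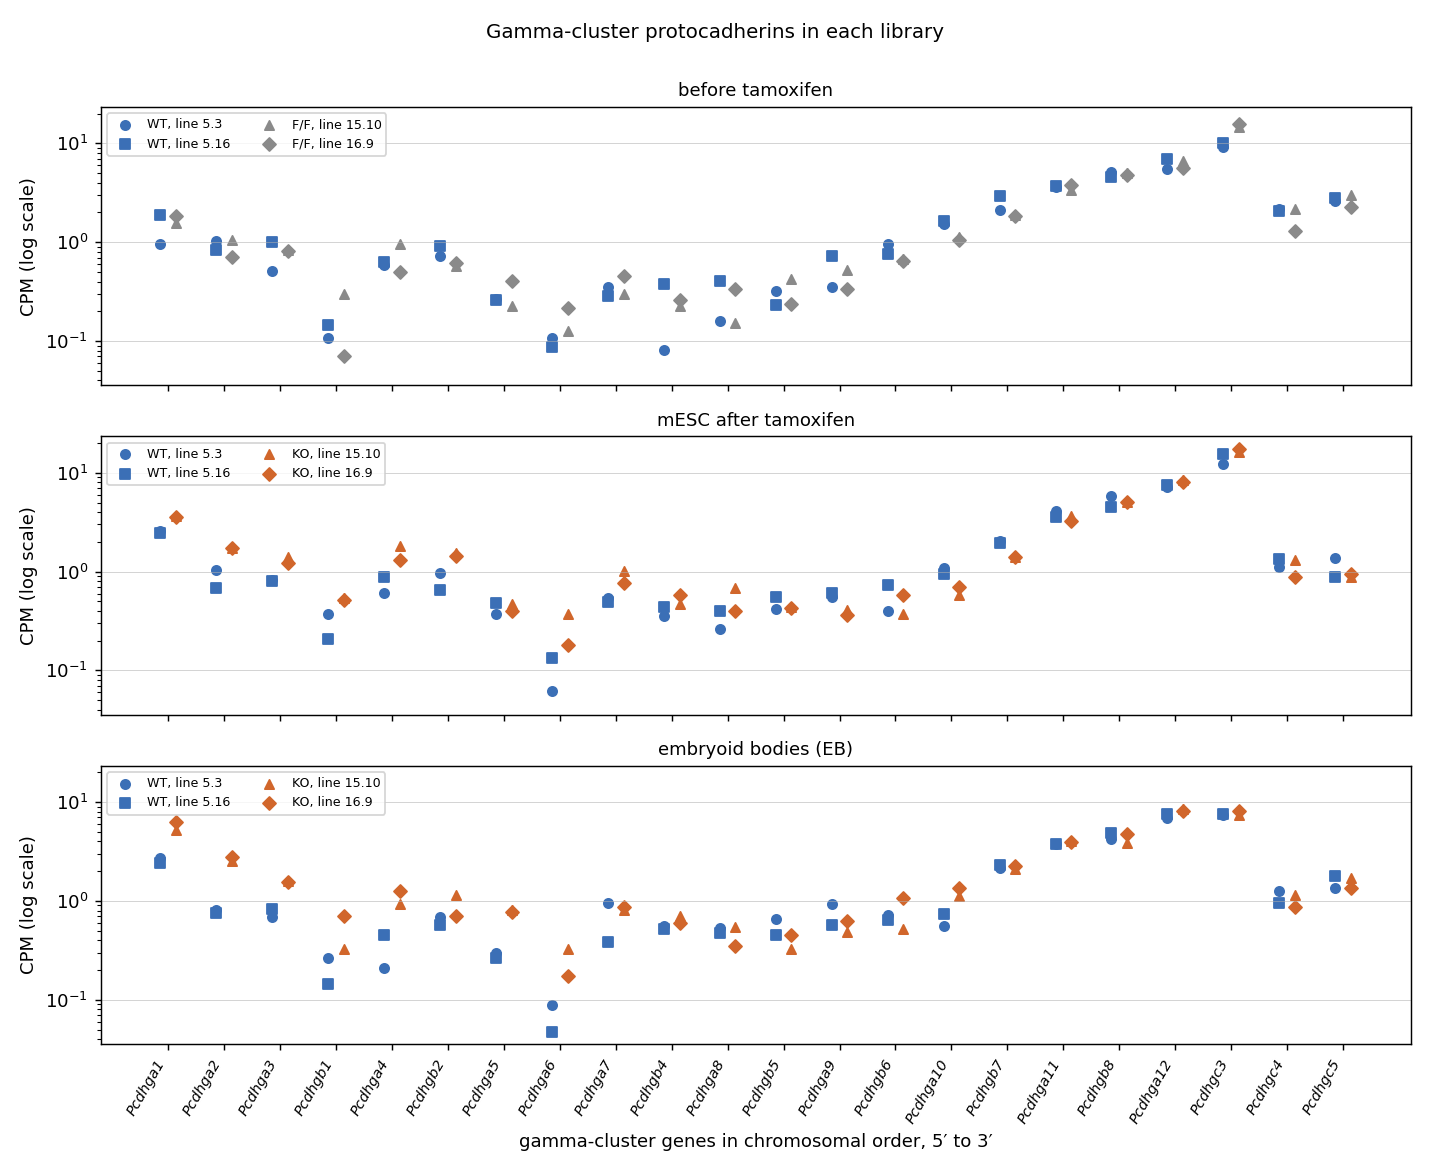
CPM (log axis) of the 22 gamma genes in chromosomal order in each library, in 3 panels for cells before OHT, mESC after OHT and EB, with WT in blue, F/F in grey, KO in orange and 1 symbol per line. In EB the KO symbols lie above the WT symbols from Pcdhga1 to Pcdhga5. They also do so for Pcdhga6, which has at most 12 reads in any library. Over most of the genes further along KO and WT symbols mix, while Pcdhgc3 drops to 7.34 to 8.22 CPM in all 4 EB libraries.

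In EB, genes at the 5′ end of the gamma cluster were more abundant in KO than in WT. Of the 23 tested clustered protocadherins, 7 rose and 0 fell in KO EB, beside 20.7% of all genes tested called higher and 19.7% called lower. Among them were Pcdhac2 and 5 of the first 7 gamma genes. The limit at 7 was set after these values had been seen, so counts within it are descriptions. The median log2 fold change of the 23 was 0.21, against -0.02 for all genes tested.

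Pcdhga1 was at 2.73 and 2.41 CPM in WT EB and at 5.18 and 6.33 CPM in KO EB. It rose by 1.10 ± 0.22 (adjusted p = 0.000778, edgeR). Pcdhga2 was at 0.802 and 0.764 CPM in WT EB and at 2.51 and 2.80 CPM in KO EB, a rise of 1.69 ± 0.28 (adjusted p = 0.000127, edgeR). For both genes the KO EB libraries were the highest of all 12, and both calls held under all 8 alternatives.

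Pcdhga3 was at 0.683 and 0.836 CPM in WT EB and at 1.61 and 1.57 CPM in KO EB, a rise of 0.99 ± 0.30 (adjusted p = 0.0149, edgeR). Pcdhga4 was at 0.208 and 0.454 CPM in WT EB, on 7 and 19 reads, and at 0.927 and 1.26 CPM in KO EB, a rise of 1.59 ± 0.42 (adjusted p = 0.00604, edgeR). Pcdhga5 was at 0.297 and 0.263 CPM in WT EB and at 0.818 and 0.769 CPM in KO EB, a rise of 1.44 ± 0.40 (adjusted p = 0.00853, edgeR). None of the 3 overlapped between genotypes in EB. Without the WT EB library of line 5.3, Pcdhga3 and Pcdhga4 did not pass, and Pcdhga5 did not pass without that of line 5.16. Pcdhga3 and Pcdhga5 also did not pass without the KO EB library of line 15.10, nor Pcdhga3 and Pcdhga4 without that of line 16.9. DESeq2 did not call Pcdhga3 or Pcdhga5. The count of 7 fell to 4 without the WT EB library of line 5.3, without either KO EB library, or under DESeq2.

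Pcdhga10 lies further along the cluster, between Pcdhgb6 and Pcdhgb7. It was at 0.565 and 0.741 CPM in WT EB and at 1.12 and 1.36 CPM in KO EB. It rose by 0.84 ± 0.29 (adjusted p = 0.0307, edgeR), a call lost under DESeq2 and without either KO EB library or the WT EB library of line 5.3. Its level after OHT in mESC ran the other way, at 1.08 and 0.955 CPM in WT and 0.576 and 0.700 CPM in KO, with no overlap and without passing the test (-0.73 ± 0.29, adjusted p = 0.059, edgeR). Before OHT it was at 1.53 and 1.65 CPM in WT and 1.13 and 1.05 CPM in F/F. Its variable exon is covered over 100% of its length by the non-coding model Gm26672, which also covers 52.4% of that of Pcdhga11 and 29.7% of that of Pcdhgb7 and has no row of its own in the table. No source used here says whether counting used strand, so reads of that model cannot be told apart from those of Pcdhga10.

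**Figure D4:**
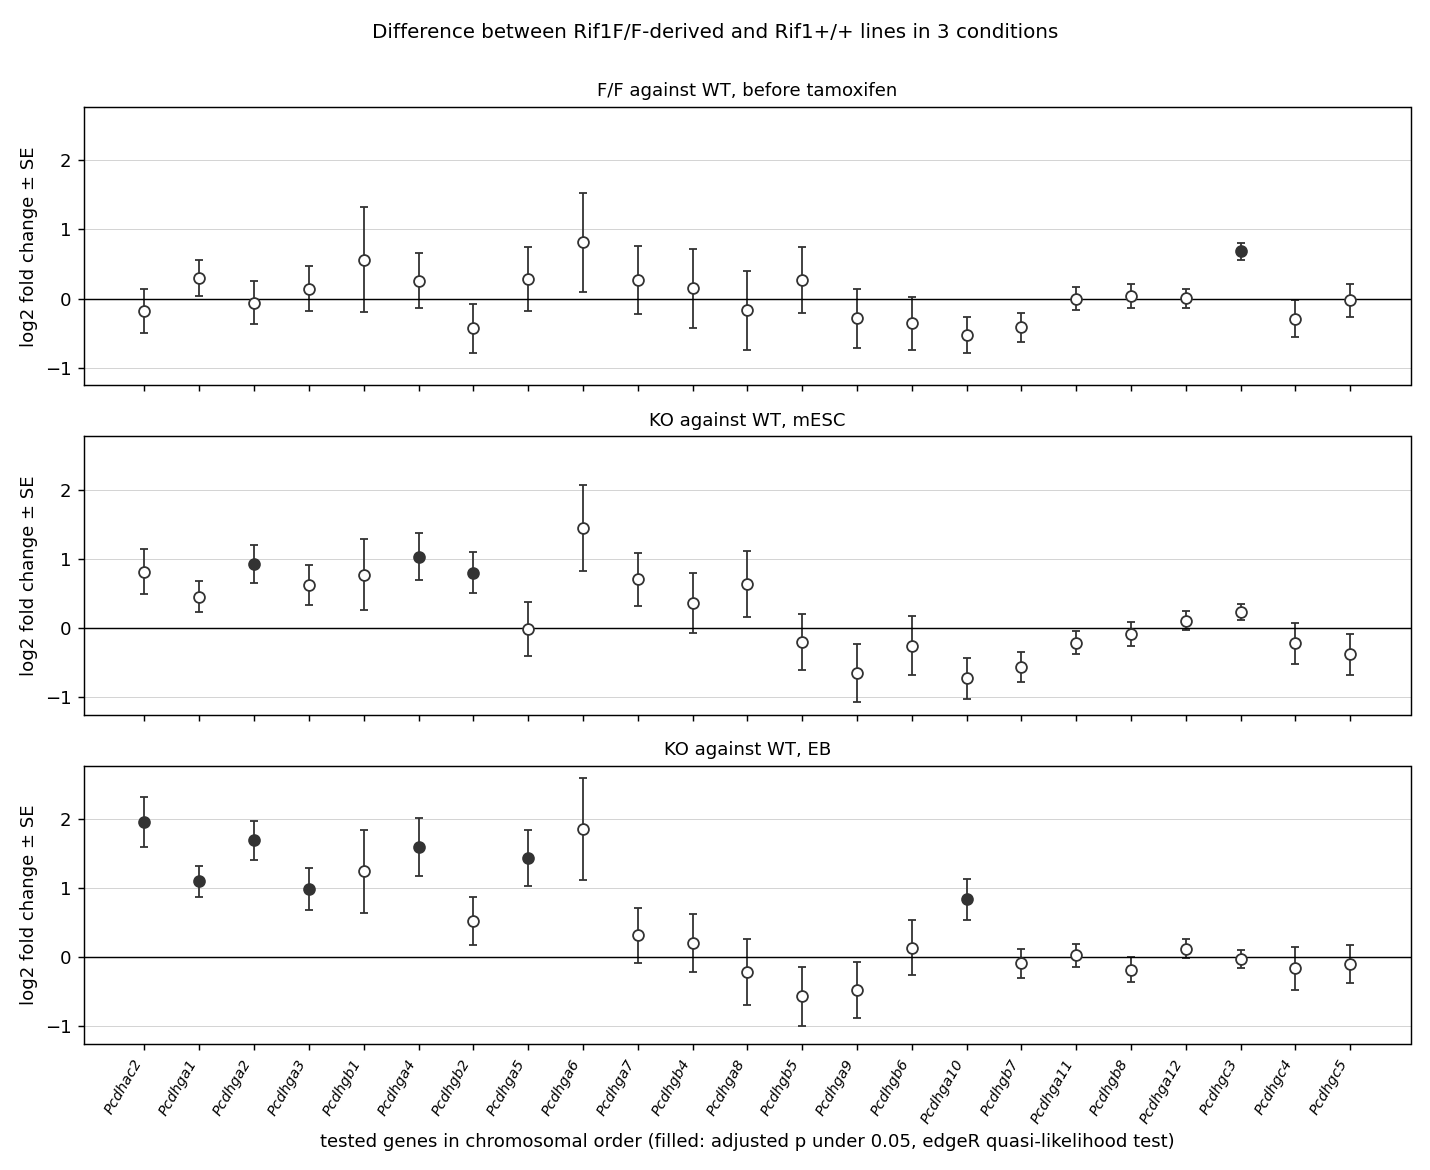
Log2 fold change ± SE of Pcdhac2 and the 22 gamma genes in chromosomal order, for F/F against WT before OHT and KO against WT in mESC and EB (3 panels, same axis), with filled points at an adjusted p under 0.05. Only Pcdhgc3 is filled before OHT, 3 genes are filled in mESC and 7 in EB, and the last 7 genes of the cluster lie between -0.18 and 0.12 in EB.

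In mESC after OHT, 3 of the 23 rose in KO and 0 fell, beside 19.8% of all genes called higher and 18.6% called lower. All 3 are among the first 7 gamma genes, a group set after the values had been seen. Pcdhga2 was at 1.03 and 0.688 CPM in WT and 1.73 and 1.74 CPM in KO (0.93 ± 0.27, adjusted p = 0.0128, edgeR). Pcdhga4 was at 0.602 and 0.879 CPM in WT and 1.83 and 1.31 CPM in KO (1.03 ± 0.34, adjusted p = 0.0225, edgeR). Pcdhgb2 was at 0.972 and 0.649 CPM in WT and 1.56 and 1.43 CPM in KO (0.80 ± 0.30, adjusted p = 0.0436, edgeR). None of the 3 overlapped between genotypes. Without the WT mESC library of line 5.3, Pcdhga2 and Pcdhgb2 stayed past the threshold, at 1.32 and 1.19, and Pcdhga4 did not, at 0.82 (adjusted p = 0.134, edgeR). Without the WT mESC library of line 5.16, only Pcdhga4 of the 3 passed, and Pcdhgc3 passed in addition, at 0.37 (adjusted p = 0.0367, edgeR). Leaving out either KO mESC library, or using DESeq2, left 1 of the 3.

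Before OHT, 1 of the 23 was higher in F/F than in WT and 0 were lower, beside 19.9% and 17.5% of all genes. That gene was Pcdhgc3. Of the first 7 gamma genes, 0 passed the test before OHT, and 6 of the 7 overlapped between genotypes there. How many of all genes overlapped was not computed, so this is a description. Without the WT library of line 5.16, Pcdhga1 passed as higher in F/F, at 0.84 against 0.30 with it (adjusted p = 0.0382, edgeR). The gene without overlap was Pcdhgb2, at 0.726 and 0.925 CPM in WT and 0.578 and 0.619 CPM in F/F (adjusted p = 0.357, edgeR).

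The first 7 gamma genes in chromosomal order are Pcdhga1, Pcdhga2, Pcdhga3, Pcdhgb1, Pcdhga4, Pcdhgb2 and Pcdhga5, and they were set beside the other 15 after their values had been seen, so the split is a description with no test. Their summed level was 4.19 and 5.70 CPM in WT and 5.53 and 4.95 CPM in F/F before OHT. It was 6.71 and 6.19 CPM in WT mESC, and 11.2 and 10.1 CPM in KO mESC. It was 5.68 and 5.45 CPM in WT EB, and 12.5 and 14.1 CPM in KO EB. The 4 KO libraries were above all 8 others, and the WT and F/F libraries overlapped. The other 15 genes summed to 32.2 and 32.9 CPM in WT EB and 33.6 and 35.0 CPM in KO EB, and to 34.3 to 41.3 CPM in the mESC libraries. The first 7 thus made up 14.97% and 14.2% of gamma reads in WT EB and 27.1% and 28.8% in KO EB. In EB all 7 had a fitted difference above 0, with a median of 1.24, and in mESC 6 of the 7 did, with a median of 0.77. The other 15 had medians of -0.03 in EB and -0.21 in mESC.

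Pcdhgb1 and Pcdhgb2 of the first 7 did not pass in EB, with differences of 1.24 ± 0.60 (adjusted p = 0.107, edgeR) and 0.52 ± 0.35 (adjusted p = 0.252, edgeR). The gene next in line, Pcdhga6, had the fewest reads of the gamma cluster, 71 in all. It had 3 and 2 reads in WT EB and 12 and 5 in KO EB, with a difference of 1.85 ± 0.74 that did not pass (adjusted p = 0.055, edgeR). Its highest levels were 0.373 CPM in the KO mESC and 0.327 CPM in the KO EB library of line 15.10. No other library was above 0.214 CPM. The filter on low counts keeps a gene by its highest libraries, here KO libraries. The difference of Pcdhga6 is therefore a description and does not extend the run of the first 7. From Pcdhga7 onwards 1 of 14 genes, Pcdhga10, was called in EB. The constant exons are shared by all gamma genes, and no source used here says how reads in them were assigned.

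**Figure D5:**
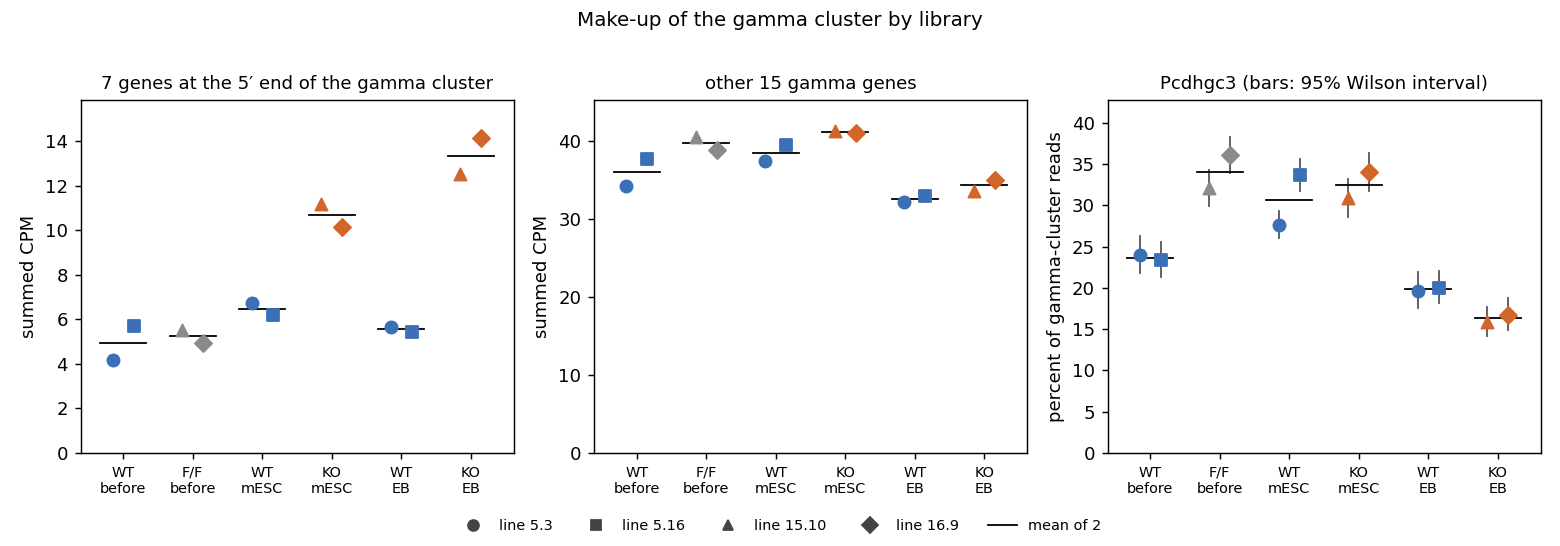
Summed CPM of the first 7 and of the other 15 gamma genes, and the share of gamma reads from Pcdhgc3 with 95% Wilson intervals, by library (3 panels, axes from 0, 1 symbol per line, horizontal lines for the mean of each pair). The split was made after the values had been seen. The first 7 reach 10.1 to 14.1 CPM in the 4 KO libraries and 4.19 to 6.71 CPM in the other 8, and the Pcdhgc3 share is lowest in the 2 KO EB libraries.

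Whether the genotype difference itself changed between conditions was tested with differences of contrasts, which share libraries with the contrasts above. From before OHT to mESC, 0 of the 23 passed in either direction with edgeR and 0 with DESeq2, beside 4.07% and 3.79% of all genes, and 4 had an unadjusted p under 0.05. From before OHT to EB, 3 passed as higher and 1 as lower, beside 15.5% and 15.7% of all genes. The difference grew for Pcdhac2 by 2.14 ± 0.49 (adjusted p = 0.00294, edgeR), for Pcdhga2 by 1.75 ± 0.42 (adjusted p = 0.00406, edgeR) and for Pcdhga10 by 1.36 ± 0.39 (adjusted p = 0.0138, edgeR). It fell by 0.71 for Pcdhgc3 (SE 0.18, adjusted p = 0.00614, edgeR). From mESC to EB, Pcdhga10 alone passed, at 1.57 ± 0.42 (adjusted p = 0.00942, edgeR), so 1 was higher and 0 lower, beside 14.8% and 13.7% of all genes. For the other genes of the 5′ end, among them Pcdhga1, Pcdhga3, Pcdhga4 and Pcdhga5, a change of the genotype difference after OHT did not pass. Their estimates from before OHT to EB were 0.80, 0.85, 1.33 and 1.16, with adjusted p from 0.0916 to 0.172 (edgeR). Leaving out 1 library made 2 of them pass. Pcdhga1 passed at 1.20 without the untreated WT library of line 5.3 (adjusted p = 0.0107, edgeR). Pcdhga4 passed at 2.05 without the WT EB library of line 5.16 (adjusted p = 0.0478, edgeR) and at 1.83 without the F/F library of line 15.10 (adjusted p = 0.0386, edgeR).

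Pcdhgc3 had its own course. It is the first C-type gene of the gamma cluster. It was at 9.22 and 10.1 CPM in WT and 14.7 and 15.8 CPM in F/F before OHT. It was at 12.2 and 15.4 CPM in WT mESC and 16.2 and 17.4 CPM in KO mESC. In EB it was at 7.46 and 7.67 CPM in WT and 7.34 and 8.22 CPM in KO. The genotypes were apart before OHT, by 0.69 ± 0.12 (adjusted p = 0.000292, edgeR), and overlapped in EB, at -0.03 ± 0.13 (adjusted p = 0.896, edgeR). In mESC the libraries did not overlap but the difference of 0.23 ± 0.12 did not pass (adjusted p = 0.131, edgeR). Before OHT it took 24.0% and 23.3% of gamma reads in the WT lines, against 32.1% and 36.0% in the F/F lines. The share was 27.6% to 34.0% in mESC after OHT, 19.7% and 20.0% in WT EB and 15.9% and 16.7% in KO EB. The antisense model BC037039 covers 58.9% of its variable exon and has no row in the table, so reads of the 2 cannot be told apart where counting ignored strand.

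From mESC to EB, Pcdhgc3 fell in both genotypes, by 0.87 in WT (SE 0.12, adjusted p = 8.76e-06, edgeR) and by 1.14 in KO (SE 0.13, adjusted p = 6.34e-07, edgeR). In the WT lines 0 of the 23 rose and 2 fell, beside 32.5% of all genes called higher and 29.8% called lower. The other was Pcdhga4, which fell by 1.11 (SE 0.42, adjusted p = 0.028, edgeR), a call that was lost under DESeq2, without the WT EB library of line 5.3 or without the WT mESC library of line 5.16. Without the WT mESC library of line 5.3 both falls still passed, and Pcdhgc5 passed in addition as higher, at 0.84 (adjusted p = 0.0276, edgeR). In the KO lines 4 rose and 1 fell, beside 31.4% and 27.6% of all genes. In each of these directions the share of the 23 called was below that of all genes, which is a description with no test.

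The 4 that rose in the KO lines were Pcdhga1, Pcdhga10, Pcdhgb7 and Pcdhgc5. Pcdhga1 went from 3.66 and 3.53 to 5.18 and 6.33 CPM (0.65 ± 0.22, adjusted p = 0.0162, edgeR). Pcdhga10 went from 0.576 and 0.700 to 1.12 and 1.36 CPM (0.92 ± 0.31, adjusted p = 0.0155, edgeR). Pcdhgb7 went from 1.39 and 1.40 to 2.13 and 2.27 CPM (0.63 ± 0.23, adjusted p = 0.026, edgeR). None overlapped between the conditions. Pcdhgc5 went from 0.881 and 0.944 to 1.72 and 1.36 CPM (0.74 ± 0.31, adjusted p = 0.0464, edgeR), and with the line as a block it did not pass (adjusted p = 0.0577, edgeR). Leaving out 1 of the 4 KO libraries left between 0 and 2 of these 4 rises, and DESeq2 left 1.

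From untreated cells to OHT-treated mESC, Pcdhga1 rose and Pcdhgc5 fell in both genotypes. In WT lines 2 of the 23 rose and 2 fell, beside 24.9% and 24.2% of all genes. Pcdhga1 rose from 0.968 and 1.88 to 2.55 and 2.48 CPM (0.92 ± 0.25, adjusted p = 0.00544, edgeR), a call lost without the untreated library of line 5.3 (adjusted p = 0.118, edgeR). Pcdhgc3 rose by 0.59 ± 0.12 (adjusted p = 0.000798, edgeR). Pcdhgc5, the last variable exon of the cluster, fell from 2.61 and 2.83 to 1.37 and 0.879 CPM, by 1.16 (SE 0.25, adjusted p = 0.00116, edgeR). Pcdhgc4, its neighbour, fell from 2.18 and 2.08 to 1.11 and 1.36 CPM, by 0.71 (SE 0.27, adjusted p = 0.0349, edgeR). The Pcdhgc4 call was lost without the WT mESC library of line 5.3 (adjusted p = 0.157, edgeR) without either untreated library and under DESeq2.

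In the Rif1F/F lines the same step includes deletion at the floxed Rif1 alleles. Over it 7 of the 23 rose and 1 fell, beside 22.1% and 21.5% of all genes. Pcdhgc5 was the one that fell, from 3.01 and 2.26 to 0.881 and 0.944 CPM, by 1.52 (SE 0.28, adjusted p = 0.000413, edgeR). Of the 7 that rose, 5 were among the first 7 genes, the group set after the values had been seen. Pcdhga1 went from 1.58 and 1.83 to 3.66 and 3.53 CPM (1.07 ± 0.24, adjusted p = 0.00181, edgeR). Pcdhgb2 went from 0.578 and 0.619 to 1.56 and 1.43 CPM (1.31 ± 0.33, adjusted p = 0.00391, edgeR). These calls of Pcdhgc5, Pcdhga1 and Pcdhgb2 held under all 9 alternatives. Pcdhga2 rose by 0.98 and Pcdhga4 by 1.11 over the same step (adjusted p of 0.0111 and 0.0175, edgeR). Pcdhga7 rose by 1.22, from 0.301 and 0.452 to 1.02 and 0.761 CPM (adjusted p = 0.0275, edgeR), and Pcdhga12 by 0.44 (adjusted p = 0.0171, edgeR), the latter lost without either KO mESC library or the F/F library of line 16.9. Pcdhgb1 rose from 0.301 and 0.0714 to 0.542 and 0.518 CPM (1.51 ± 0.59, adjusted p = 0.0463, edgeR), but not with the line as a block (adjusted p = 0.0557, edgeR). Only 3 of the 7 were left without either KO mESC library or without the F/F library of line 16.9, and 4 under DESeq2. Pcdhga1 and Pcdhgc5 moved the same way in both genotypes, and, as given above, 0 of the 23 passed the test of a changed genotype difference over this step.

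Within a pair of lines the spread was large for the low genes. The median absolute log2 difference between the 2 lines of a group over the 23 genes ran from 0.17 in KO mESC to 0.36 in WT mESC. The largest was 2.22, for Pcdhgb4 in untreated WT cells, where it had 3 and 13 reads. Only 1 of the 23 genes, Pcdhgc3, was highest in the same line in all 3 conditions, and that line was 16.9. The highest line was taken over both genotypes, so a genotype difference moves it too. The count is a description with no test and cannot show whether lines have profiles of their own.

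Sequence shared between variable exons and other transcripts was measured on the transcript strand only. It leaves out models on the opposite strand and the constant exons, so it does not show how many reads could be placed. The share of 50-base words of the variable exon found in transcripts of other genes was taken, leaving out alpha-gamma read-through models. It was 0% for Pcdhga1, Pcdhgc3, Pcdhgc4, Pcdhgc5 and Pcdhac2, 0.317% for Pcdhga2, 1.02% for Pcdhga3 and 0.601% for Pcdhga5. Even so, the model Gm37118 covers 15.8% of the variable exon of Pcdhga1, and Gm26672 covers 14.3% of that of Pcdhga12. Pcdhga4 stood out with 39.5%, because a transcript model of Pcdhgb1 covers 39.8% of its variable exon, so its reads and those of Pcdhgb1 could be split. Type B genes shared between 2.67% and 17.9%, and the alpha genes from Pcdha1 to Pcdha12, of which Pcdha10 and Pcdha11 were not measured, between 10.2% and 26.6%. The first exon of Pcdha4, at 0 in all libraries, is covered over 99.9% of its length by other gene models. A count of 0 there does not show that the gene was silent.

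Of 15 tested genes that neighbour the clusters, 1 rose and 0 fell in KO EB, beside 20.7% and 19.7% of all genes, with a median log2 difference of -0.03. In KO mESC 2 rose and 1 fell, beside 19.8% and 18.6%, and before OHT 2 were higher and 2 lower in F/F, beside 19.9% and 17.5%. The 1 in EB was Dnd1, which encodes an RNA-binding protein of germ cells and lies before the alpha cluster. It was at 9.003 and 8.62 CPM in WT EB and 16.6 and 14.96 CPM in KO EB (log2 difference 0.78, adjusted p = 0.00135, edgeR). Slc25a2 and Taf7, which lie between the beta and gamma clusters, differed in EB by -0.11 and -0.02 (adjusted p of 0.753 and 0.825, edgeR), and Taf7 was lower in KO mESC, at -0.24 (adjusted p = 0.00609, edgeR), a call lost without the KO mESC library of line 16.9. Arap3 and Fchsd1, which lie beyond the gamma cluster, were lower in F/F before OHT, at -2.00 and -0.87, and did not pass in EB.

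Of 31 tested regulators of the clusters, 6 rose and 9 fell in KO mESC, beside 19.8% and 18.6% of all genes. In KO EB 4 rose and 10 fell, beside 20.7% and 19.7%, with a median of -0.04. Before OHT 7 were higher and 3 lower in F/F, beside 19.9% and 17.5%. Ctcf, which encodes the insulator protein that binds most variable promoters, did not pass in any of these contrasts, with differences of -0.09, -0.01 and 0.01 in mESC, in EB and before OHT (adjusted p of 0.310, 0.911 and 0.892, edgeR). Smchd1, which encodes a repressor of the clusters, was lower in KO mESC, at -0.20 (adjusted p = 0.0183, edgeR), a call lost without the WT mESC library of line 5.3 or either KO library. It did not pass in EB, at 0.08 (adjusted p = 0.347, edgeR). Dnmt3a, a de novo DNA methyltransferase gene, was at 976 and 951 CPM in WT EB and 400.4 and 390 CPM in KO EB, a fall of 1.35 on the log2 scale (adjusted p = 5.92e-10, edgeR). Dnmt3b, its relative known for methylating protocadherin promoters, fell by 0.65 in KO EB (adjusted p = 1.27e-06, edgeR), and Ehmt2, a histone H3 lysine methyltransferase gene, fell by 0.69 (adjusted p = 3.54e-06, edgeR). Dnmt3l, a cofactor of both methyltransferases, fell by 0.79 in KO mESC (adjusted p = 6.52e-08, edgeR) and rose by 0.22 in KO EB (adjusted p = 0.011, edgeR), the latter lost without the WT EB library of line 5.3 or the KO EB library of line 15.10. Dnmt3a and Dnmt3b were lower in KO mESC too, at -0.57 and -0.60 (adjusted p of 3.08e-05 and 5.84e-06, edgeR). Ehmt2 did not pass there, at 0.18. Dnmt3a and Dnmt3l were also lower in F/F before OHT, each at -0.48. Any part of these genes in the protocadherin levels was not tested.

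Of 9 tested protocadherins outside the clusters, 5 rose and 1 fell from mESC to EB in WT, beside 32.5% and 29.8% of all genes, with a median of 2.67. In KO 8 rose and 1 fell, beside 31.4% and 27.6%, with a median of 2.25. In KO against WT EB 2 of the 9 rose and 3 fell, beside 20.7% and 19.7%. Pcdh1 was at 1.23 and 1.76 CPM in WT mESC and 52.7 and 61.4 CPM in WT EB, and at 22.1 and 21.9 CPM in KO EB. The KO level in EB was the lower one, at a log2 difference of -1.44 (adjusted p = 2.23e-07, edgeR), as was the F/F level before OHT, at -1.25. Pcdh19 was the one that fell with the EB step, and it was higher in KO EB, at 0.65 (adjusted p = 2.23e-05, edgeR), and before OHT, at 0.33. Pcdh18 rose in KO mESC, at 3.06 (adjusted p = 6.11e-06, edgeR), and fell by 0.77 in KO EB, the latter lost without the WT EB library of line 5.3. Pcdh17 rose in KO mESC, at 2.04 (adjusted p = 0.00216, edgeR), though not without the KO mESC library of line 15.10.

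Of 12 genes for partners that process or signal from protocadherins, 5 rose and 0 fell in KO EB, beside 20.7% and 19.7% of all genes, with a median of 0.09. In KO mESC 1 rose and 2 fell, beside 19.8% and 18.6%, and before OHT 1 was higher and 1 lower in F/F, beside 19.9% and 17.5%. Cyfip1, a subunit of the WAVE actin regulator bound by protocadherins, was higher in all 3 contrasts, at 0.29 in mESC, 0.33 in EB and 0.36 before OHT. Wasf1 of the same complex rose in KO EB, at 0.41 (adjusted p = 0.00503, edgeR), though not without the WT EB library of line 5.16. Cdh2, the gene of N-cadherin, rose in KO EB, at 0.42 (adjusted p = 0.0106, edgeR), though not without the WT EB library of line 5.16 or the KO EB library of line 16.9, and was lower in F/F before OHT, at -0.89. Fyn, a kinase gene, fell by 0.49 in KO mESC (adjusted p = 0.000461, edgeR).

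Markers of other cell types moved between the same libraries. Of 7 neuron markers 3 rose and 0 fell in KO EB, beside 20.7% and 19.7% of all genes, and their sum was 145 and 138 CPM in WT EB and 193 and 188 CPM in KO EB. In mESC after OHT it was 190 and 197 CPM in WT, and 198 and 201 CPM in KO. Most of it came from Stmn2, at 128 to 133 CPM in KO EB. Of 4 neural progenitor markers 0 rose and 1 fell in KO EB, with sums of 25.3 and 22.1 CPM in WT and 16.0 and 19.1 CPM in KO. All 4 formative epiblast markers fell in KO EB, with sums of 1532 and 1535 CPM in WT against 984 and 977 CPM in KO. They include Dnmt3b, which is also counted among the regulators above. Of 7 pluripotency markers 4 rose in KO EB. Before OHT 6 of the 7 were already higher in F/F than in WT and 0 lower, beside 19.9% and 17.5% of all genes. Their sums were then 4246 and 4525 CPM in WT and 5540 and 5797 CPM in F/F. Of the formative markers 0 were higher in F/F and 1 lower. That was Otx2, at -0.39, a call lost when either of 2 libraries was left out. Of the neuron markers 0 were higher and 1 lower, and of the neural progenitor markers 0 and 2. Of 6 tested fibroblast markers 1 rose and 1 fell in KO EB, and before OHT 2 were higher and 1 lower in F/F. Col1a2, which rose in KO EB, at 2.08, was already higher in F/F before OHT, at 8.31. Dcn, which fell in KO EB, at -1.05, did not pass before OHT, and its call was lost under 5 of 8 alternatives. The part of these cell types in the protocadherin levels was not tested, and in bulk RNA a smaller share of cells that express a gene cannot be told apart from less RNA per cell.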

How the data were processed

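RNA-seq libraries of 12 mouse stem cell and embryoid body samples were analysed. The authors deposited 1 table of raw counts per gene. The submitters' processing notes name BWA, HTSeq, DESeq2 and mm9, without versions or roles; strand and the handling of shared reads are not given in the sources used here. CPM was computed by dividing counts by total counts per library (28600870 to 64808897). Genes were filtered (filterByExpr), normalised by TMM and tested with edgeR 4.0.16 (quasi-likelihood F test, R 4.3.3, 6 groups in 1 model, common biological coefficient of variation 0.0717) over 17115 genes, with Benjamini-Hochberg adjusted p under 0.05 as a call; SE is the absolute log2 fold change over the square root of F. The fit was tested on simulated data. Every called clustered protocadherin and the 3 highest of each cluster were named, with up to 4 genes per list plus Rif1, Ctcf and Smchd1. The members, lists and tests were chosen with earlier results of these data known. Same-numbered libraries are the same cell line, which pairs conditions within a line; their deviations from group means correlated at -0.066 to 0.091. Alternatives were RLE size factors, no filter, the compared groups only, the line as replicate block, DESeq2 1.42.0 and leaving out each library. Variable exons were measured in the GRCm38 annotation, used for lengths and order only. Sequences are not shown.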

Additional observations from a re-analysis of the deposited data

Results flagged for a closer look

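For 4 clustered protocadherins, with 5 values, the data showed a genotype difference that itself differed between conditions by the interaction term of the edgeR fit. Of all genes tested, 15.5% passed as higher and 15.7% as lower from before OHT to EB, and 14.8% and 13.7% from mESC to EB. The number of clustered protocadherins that passed thus does not set them apart from other genes. The KO to WT difference in EB exceeded that before OHT by 2.14 for Pcdhac2, by 1.75 for Pcdhga2 and by 1.36 for Pcdhga10, all on the log2 scale. For Pcdhac2 and Pcdhga2 the calls held under all 13 alternatives, whereas for Pcdhga10 the call was lost under DESeq2, without the WT EB library of line 5.3 and without the KO EB library of line 16.9. For Pcdhgc3 the value was -0.71, because the lines were apart before OHT and together in EB, and it held under all 13 alternatives. Between mESC and EB the difference changed for Pcdhga10 alone, by 1.57, with KO below WT in mESC and above WT in EB, and this call also held under all 13. The libraries before OHT were on a different flow cell from those in EB, so the part of the flow cell in these values cannot be told apart from that of the condition.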

How the results depend on the processing

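The design limits what can be said: 2 lines per genotype, 1 library per line and condition, and few reads for alpha and beta genes. Of 35 called values of the clustered protocadherins, 15 passed under every alternative run and 20 were lost under at least 1. None of these called values changed sign in 324 alternative values. Losses came 51 times from leaving out 1 library, 14 times under DESeq2, 2 times under the replicate block and 1 time with only the groups compared, and 0 times with RLE size factors or without the filter. The replicate block, possible within lines and for differences of contrasts, ended the calls of Pcdhgb1 (KO mESC against F/F, adjusted p = 0.0557, edgeR) and Pcdhgc5 (KO EB against KO mESC, adjusted p = 0.0577, edgeR) and changed no other call, so that 6 genes in place of 7 and 3 in place of 4 were higher. DESeq2 called 1 gene higher in KO mESC, 4 in KO EB, 1 from KO mESC to KO EB and 4 from F/F to KO mESC. It called 1 lower from WT mESC to WT EB and 1 from untreated to OHT-treated WT. Over all genes it called 3047 of 17018 higher in KO mESC and 3290 of 18276 in KO EB. From KO mESC to KO EB it called 4908 of 18276 higher, and from F/F to KO mESC 3609 of 17438. It called 4907 of 18696 lower from WT mESC to WT EB and 3386 of 17857 from untreated to OHT-treated WT. Without the filter 4 genes were higher from WT mESC to WT EB, and 1 was lower in KO than WT EB. Over all 21632 genes these counts were 5685 and 3566. With only the groups compared 2 genes were higher from WT mESC to WT EB and 2 lower from KO mESC to KO EB. Over all genes these counts were 4843 of 16381 and 5612 of 15904.

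Leaving out 1 library at a time gave between 1 and 2 genes higher in KO mESC, 4 and 6 in KO EB, 1 and 2 in F/F before OHT, 0 and 1 from WT mESC to WT EB (1 and 2 lower), 0 and 2 from KO mESC to KO EB (1 and 2 lower), 1 and 4 from untreated to treated WT (1 and 2 lower), and 3 and 6 from F/F to KO mESC (1 and 2 lower). Among cluster sums, leaving out Pcdhac2 moved the log2 ratios of the alpha cluster to 1.34 for KO against WT mESC, -0.21 for KO against WT EB, 2.79 for WT EB against WT mESC and 1.24 for KO EB against KO mESC. Leaving out Pcdhgc3 moved those of the gamma cluster to -0.076 for F/F against WT, -0.026 for WT EB against WT mESC and 0.19 for KO EB against KO mESC. With TMM or RLE scaling the gamma ratio of KO to WT mESC was 0.15. For the listed genes beside the clusters, 838 of 904 alternative values kept their side of the threshold; the 12 values with an alternative of the other sign were not called. The cause of each change was not tested, apart from the members left out.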
